A study of Homo sapiens with 6 samples.

Results

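The integrated stress response was examined through 10 genes in RPMI8226 cells, an established human multiple myeloma (MM) line. The genes were ATF4, DDIT3, ASNS, CHAC1, TRIB3, SESN2, PSAT1, PHGDH, PPP1R15A and CEBPB, chosen by name as ATF4 and genes of its response and found by Ensembl identifier among the 63677 genes of the count table. All 10 were found on primary chromosomes, and all 10 were among the 16926 genes with enough reads to be tested. Genotype was given as WT for all samples, and each was exposed to protein at 100 nM for 6 hr. In 3 samples the protein was GST-PTR1, which joins glutathione-S-transferase (GST) to PTR1, a domain of HAPLN1, a protein of the extracellular matrix. In the other 3 it was GST, the fusion partner alone, which served as the negative control. As all samples came from 1 cell line and 1 time point, the comparison describes those cells at that time.

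In the integrated stress response, kinases that sense different stresses phosphorylate the initiation factor eIF2, which lowers general protein synthesis while the mRNA of the transcription factor ATF4 is translated more efficiently. ATF4, often as a dimer with a C/EBP protein, then activates genes for amino acid synthesis and transport, redox balance and, with CHOP, cell death. ATF4 is controlled at the level of translation, so its mRNA level is not a measure of its protein. Plasma cells and MM cells secrete much protein and rely on the unfolded protein response of the endoplasmic reticulum (ER).

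Libraries held 15202503, 20077280 and 23453473 counts with GST and 22874133, 28837431 and 44688737 with GST-PTR1. They are named here by these totals in short, as 15.2M, 20.1M and 23.5M for GST and 22.9M, 28.8M and 44.7M for GST-PTR1. Depth therefore differed between the treatments, and its part in the results was not tested beyond the scaling. All 9 plasma cell markers listed were detected (over 3 counts in at least 1 library), with a summed level of 1997 to 2438 RPKM (counts per kilobase of exon, scaled to the library total) with GST and 1666 to 2049 with GST-PTR1, most of it JCHAIN and MZB1. Among them SLAMF7 (1.52), PRDM1 (1.35) and IRF4 (0.65) rose on the log2 scale, and TNFRSF17 (-1.41), SDC1 (-1.03) and XBP1 (-0.47) fell. T cell and myeloid markers summed to 1.8 to 1.97 RPKM with GST and 0.953 to 1.25 with GST-PTR1. Most of this was CD8A (means of 1.49 and 0.805 RPKM), and CD2 and FCGR3A had 0 counts in every library. Markers of stroma and epithelium summed to 56.3 to 62.0 and 38.4 to 42.2 RPKM, mostly KRT18 and EPCAM, with 5 of the 8 matched genes at 0. All samples were of the RPMI8226 line, so these sums describe that culture and not a mixture of tissues. Whether cells within the culture differed was not tested. In bulk RNA, a change in part of the cells and a smaller one in all of them cannot be told apart.

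Promoter sequences of RefSeq (GRCh38.p14, from 250 bases before to 50 bases after a start) were found for all 10 genes and searched on both strands for the core of the C/EBP-ATF composite element, TGATGNAA, for the ATF/CRE core TGACGT and for the C/EBP core TTGCNNAA, where N is any base. The composite element stood in ASNS and CHAC1, the ATF/CRE core in PPP1R15A, and the C/EBP core in SESN2, PHGDH and PPP1R15A. Over all 35116 promoters of this length, 3.62%, 7.98% and 10.5% held them. The promoters of ASNS (chr7:97872359-97872658, minus strand, the first of 2 starts listed), CHAC1 (chr15:40953221-40953520, plus strand) and PPP1R15A (chr19:48872171-48872470, plus strand) are shown because they hold matches to the composite element or the ATF/CRE core. Capitals mark the matches, written 5′ to 3′ on the strand of the gene.
ASNS: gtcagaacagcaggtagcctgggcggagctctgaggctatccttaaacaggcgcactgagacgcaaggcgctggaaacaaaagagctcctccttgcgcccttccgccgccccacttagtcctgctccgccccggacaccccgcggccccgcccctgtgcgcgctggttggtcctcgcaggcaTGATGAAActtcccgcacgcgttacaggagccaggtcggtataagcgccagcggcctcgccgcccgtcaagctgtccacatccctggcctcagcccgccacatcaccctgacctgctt
CHAC1: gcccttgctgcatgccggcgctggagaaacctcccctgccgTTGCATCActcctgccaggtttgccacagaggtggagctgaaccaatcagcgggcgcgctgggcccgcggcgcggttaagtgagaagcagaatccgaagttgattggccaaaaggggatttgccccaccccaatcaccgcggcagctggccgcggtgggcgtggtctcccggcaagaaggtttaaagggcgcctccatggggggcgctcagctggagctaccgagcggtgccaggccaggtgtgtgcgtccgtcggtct
PPP1R15A: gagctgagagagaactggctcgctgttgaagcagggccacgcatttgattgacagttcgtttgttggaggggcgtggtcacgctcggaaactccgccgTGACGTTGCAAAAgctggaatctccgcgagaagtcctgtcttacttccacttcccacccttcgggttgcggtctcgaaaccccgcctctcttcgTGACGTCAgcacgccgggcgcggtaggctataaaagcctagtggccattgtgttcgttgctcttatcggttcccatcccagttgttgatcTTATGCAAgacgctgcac
The ASNS match began at position -68 from the start and the CHAC1 match, on the opposite strand, at -209. PPP1R15A held an ATF/CRE core at -152 that overlaps a C/EBP core at -147, a palindromic pair of ATF/CRE cores at -58 and -56, and a C/EBP core at 33 after the start. A match of letters is a description and not a bound site.

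With GST-PTR1 the 10 genes did not move together. CEBPB and PPP1R15A rose more than 2-fold, TRIB3, PSAT1 and PHGDH fell by less than 2-fold, and ATF4, DDIT3, CHAC1, SESN2 and ASNS did not pass the test. Thus 2 of 10 were higher, against 9.15% of all genes tested, and 3 of 10 were lower, against 11.4% (quasi-likelihood test of edgeR, threshold 0.05 on the adjusted p). TRIB3 was the only lower one in 4 of the 6 fits that left out 1 library, those without the GST library of 20.1M or 23.5M or the GST-PTR1 library of 28.8M or 44.7M. The share of all genes called in those fits was not computed. At a change of at least 2-fold, 2 were higher, against 3.68% of all genes, and 0 were lower, against 3.85%. At an unadjusted p under 0.05 edgeR, DESeq2 and limma's voom each had 3 genes higher and 4 lower at any fold. The share of all genes at that threshold was not computed. The median log2 fold change of the 10 genes was -0.28, and that of all genes tested was 0.0066. Fold changes are scaled with edgeR's TMM factors, whereas RPKM levels are on library totals. Scaled by library totals instead, the median of all genes shifted by -0.20, and 5 of the 10 genes were lower, DDIT3 and SESN2 in addition, against 22.4% of all genes, and 2 were higher, against 5.48%.

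**Figure D1:**
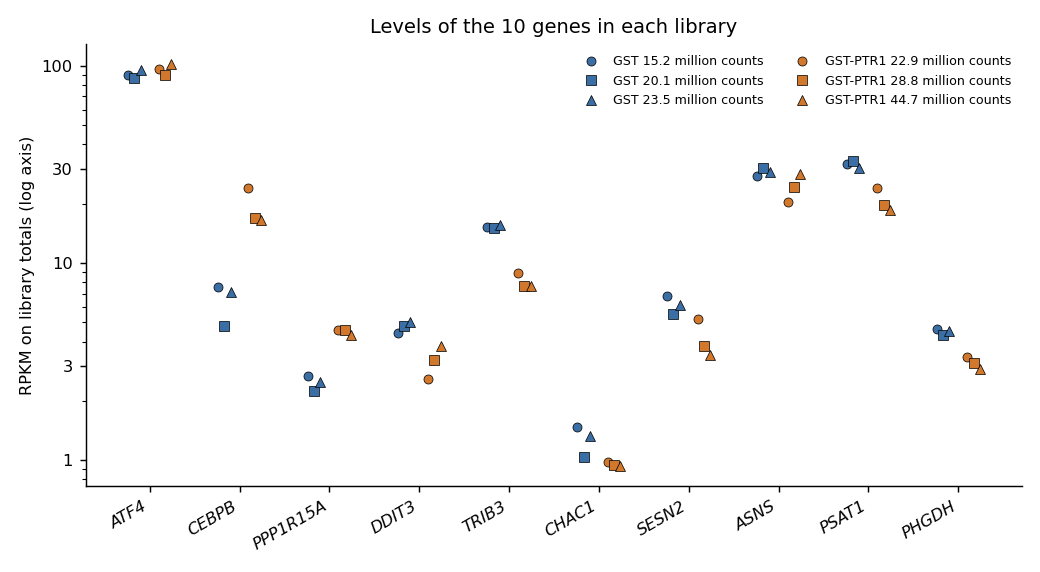
RPKM on library totals (log axis) of the 10 genes in each of the 6 libraries, with GST in blue and GST-PTR1 in orange and a symbol for each library. CEBPB and PPP1R15A lie higher in all 3 GST-PTR1 libraries, TRIB3, PSAT1, PHGDH, DDIT3, CHAC1 and SESN2 lie lower in all 3 on this scale, the last 3 of them without passing the test, and the libraries of ATF4 and ASNS overlap.

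ATF4 encodes the central transcription factor of the response (ENSG00000128272, chromosome 22 of GRCh37 from 39915700 to 39918691, plus strand). It was the most abundant of the 10 mRNAs per length, at 89.8, 86.9 and 95.8 RPKM with GST and 96.4, 90.2 and 102 RPKM with GST-PTR1. The libraries of the treatments overlapped on this scale, though not on TMM-scaled totals (84.8 ± 4.5 against 103 ± 10.9 RPKM, SD, n = 3 each). The change was 0.28 on the log2 scale (SE 0.11, 95% interval 0.041 to 0.53), with an adjusted p of 0.0926 in edgeR. It was not called in any of the 12 alternatives, where it ranged from 0.083 to 0.34. Reads of ATF4 can be split with its processed copies. ATF4P4 alone held 826 to 2650 counts per library, and with its copies added ATF4 had a log2 fold change of 0.28 (adjusted p = 0.101 in edgeR).

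CEBPB encodes C/EBPβ, a partner with which ATF4 can dimerize and also a factor of inflammatory gene expression (ENSG00000172216, chromosome 20 from 48807376 to 48809212, plus strand). Its level was 7.59, 4.8 and 7.1 RPKM with GST and 23.9, 16.9 and 16.6 RPKM with GST-PTR1. Every GST-PTR1 library stood above every GST library. On the log2 scale CEBPB rose by 1.75 (SE 0.18, edgeR adjusted p = 5.6e-05), the largest change of the 10, and it was called in all 12 alternatives.

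PPP1R15A encodes GADD34, the inducible subunit of the phosphatase that removes phosphate from eIF2α and so ends the response (ENSG00000087074, chromosome 19 from 49375649 to 49379314, plus strand). It measured 2.68, 2.24 and 2.5 RPKM with GST and 4.58, 4.55 and 4.34 RPKM with GST-PTR1, without overlap. It rose by 1.06 on the log2 scale (SE 0.13, edgeR adjusted p = 0.000174), with 0.86 to 1.10 over the 12 alternatives, all of which called it. With library totals the change stayed below 2-fold. PPP1R15B, the constitutive subunit of the same phosphatase, rose less, with a log2 fold change of 0.54 (adjusted p = 0.00271 in edgeR). The RPKM ratio of PPP1R15A to PPP1R15B, which no scaling of libraries can alter, was 0.163 ± 0.014 with GST and 0.234 ± 0.017 with GST-PTR1 (SD, n = 3 each; exact permutation test, two-sided, p = 0.1, the smallest that 3 libraries against 3 allow).

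DDIT3 encodes CHOP, a target of ATF4 that promotes cell death in lasting ER stress (ENSG00000175197, chromosome 12 from 57910371 to 57914300, minus strand). It was low, with 70 to 201 counts per library, at 4.41, 4.78 and 4.99 RPKM with GST and 2.6, 3.24 and 3.82 RPKM with GST-PTR1. These values did not overlap, but those on TMM-scaled totals did. The difference was -0.34 on the log2 scale (95% interval -0.78 to 0.10, edgeR adjusted p = 0.248), and with library totals it was -0.54 (adjusted p = 0.049 in edgeR), the only one of the 12 alternatives that called it. It was -0.19 without the GST-PTR1 library of 22.9M and -0.52 without that of 44.7M. Of its exon bases, 30.1% lie opposite exons of MARS1, and reads were counted by strand. The inducible phosphatase subunit and CHOP, its known activator, thus stood in different ratios in the treatments. PPP1R15A was at 0.525 ± 0.073 of the RPKM of DDIT3 with GST and at 1.44 ± 0.314 with GST-PTR1 (exact permutation test, two-sided, p = 0.1). As both already separated the treatments in RPKM on library totals, in opposite directions, this p could take no other value and adds nothing.

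TRIB3 encodes a pseudokinase that is induced by ATF4 and CHOP and in turn restrains ATF4 activity (ENSG00000101255, chromosome 20 from 361261 to 378203, plus strand). It stood at 15.2, 15.0 and 15.7 RPKM with GST and at 8.94, 7.62 and 7.68 RPKM with GST-PTR1. The GST libraries lay within 1 RPKM of each other and well above all GST-PTR1 libraries. TRIB3 fell by 0.72 on the log2 scale (SE 0.11, edgeR adjusted p = 0.000759), the largest fall of the 10, and all 12 alternatives called it. TRIB3 made up 61.9 ± 3.43% of the summed RPKM of TRIB1, TRIB2 and TRIB3 with GST and 53.2 ± 2.45% with GST-PTR1 (SD, n = 3 each). TRIB1 did not pass the test, with a log2 fold change of -0.21 (95% interval -0.49 to 0.07).

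CHAC1, which degrades glutathione and is a sensitive target of ATF4 and CHOP (ENSG00000128965, chromosome 15 from 41245160 to 41248710, plus strand), was the least abundant per length. It had 43 to 86 counts per library, at 1.48, 1.04 and 1.33 RPKM with GST and 0.981, 0.947 and 0.938 RPKM with GST-PTR1. Its change was -0.22 on the log2 scale (95% interval -0.66 to 0.23, adjusted p = 0.467 in edgeR). Leaving out 1 library at a time moved it between -0.14, without the GST library of 15.2M, and -0.33, without that of 20.1M, with no call.

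SESN2 encodes sestrin 2, which signals leucine shortage and stress to mTORC1 (ENSG00000130766, chromosome 1 from 28586038 to 28609002, plus strand). It had 6.82, 5.54 and 6.12 RPKM with GST and 5.22, 3.81 and 3.41 RPKM with GST-PTR1. These did not overlap, whereas they did on TMM-scaled totals. The edgeR fit gave -0.39 on the log2 scale (95% interval -0.71 to -0.06, adjusted p = 0.0877). Without the GST-PTR1 library of 22.9M it was -0.54 (adjusted p = 0.022 in edgeR). The other sestrins moved apart. SESN1, known as a p53 and FOXO target, fell from 3.40 ± 0.312 to 1.74 ± 0.117 RPKM (-0.77 on the log2 scale, edgeR adjusted p = 0.00143). The rare SESN3 rose from 0.186 ± 0.052 to 0.295 ± 0.022 RPKM (0.90 on the log2 scale, edgeR adjusted p = 0.0213). SESN3 lost its call without the GST library of 23.5M or the GST-PTR1 library of 28.8M or 44.7M. Among the 6 sestrin and TRIB genes, 1 was thus higher (SESN3, 16.7%) and 2 lower (SESN1 and TRIB3, 33.3%). Of all genes tested, 9.15% were higher and 11.4% lower. The median log2 fold change of the 6 genes was -0.30. SESN2 and TRIB3 are also among the integrated stress response genes, so the fall of TRIB3 is counted there as well. Of the summed sestrin RPKM, SESN2 took 63.2 ± 3.03% with GST and 66.6 ± 4.18% with GST-PTR1.

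Of the 3 genes for amino acid synthesis, PSAT1 and PHGDH passed the test and ASNS did not, and whether their changes differ was not tested. ASNS, which makes asparagine (ENSG00000070669, chromosome 7 from 97481430 to 97501854, minus strand), was at 27.6, 30.3 and 29.0 RPKM with GST and 20.3, 24.3 and 28.4 RPKM with GST-PTR1. The GST-PTR1 library of 44.7M fell within the range of the GST libraries. The edgeR fit gave -0.045 on the log2 scale (95% interval -0.37 to 0.28, adjusted p = 0.851), and it turned to 0.0031 without the GST library of 20.1M and to 0.094 without the GST-PTR1 library of 22.9M. PSAT1 and PHGDH act in the same pathway, which makes serine from a glycolytic intermediate.

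PSAT1, the aminotransferase of that pathway (ENSG00000135069, chromosome 9 from 80912059 to 80945009, plus strand), was at 31.7, 33.1 and 30.5 RPKM with GST and 24.0, 19.7 and 18.5 RPKM with GST-PTR1. PSAT1 fell by 0.43 on the log2 scale (SE 0.11, edgeR adjusted p = 0.0177), and no library of one treatment reached the other. PHGDH, its first enzyme (ENSG00000092621, chromosome 1 from 120202421 to 120286838, plus strand), was at 4.63, 4.32 and 4.52 RPKM with GST and 3.32, 3.1 and 2.91 RPKM with GST-PTR1. PHGDH fell by 0.34 on the log2 scale (SE 0.11, edgeR adjusted p = 0.045), again without overlap. The RPKM ratio of PSAT1 to PHGDH was 7.08 ± 0.493 with GST and 6.65 ± 0.509 with GST-PTR1 (exact permutation test, two-sided, p = 0.4). Both calls were close to the threshold. PSAT1 lost its call without the GST library of 20.1M or 23.5M (adjusted p = 0.0563 and 0.0517 in edgeR) or the GST-PTR1 library of 28.8M or 44.7M (0.0939 and 0.065), and PHGDH lost it without any 1 of the 6 libraries (adjusted p from 0.0676 to 0.151 in edgeR).

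**Figure D2:**
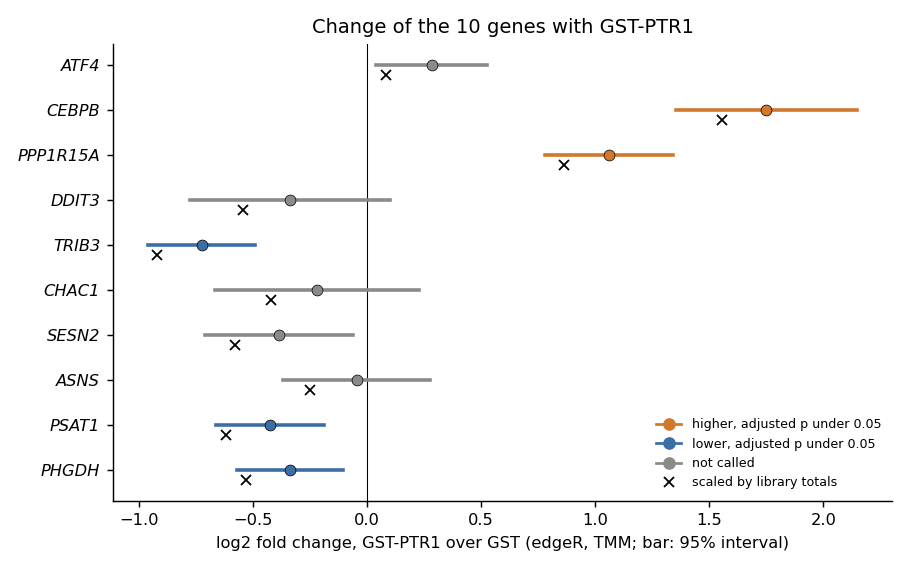
Log2 fold change of GST-PTR1 over GST for the 10 genes (points, with 95% intervals as bars, from edgeR with TMM factors), coloured by call, and the value with library totals (crosses). CEBPB (1.75) and PPP1R15A (1.06) lie right of 0, TRIB3 (-0.72), PSAT1 (-0.43) and PHGDH (-0.34) left of it, and every cross lies left of its point.

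Per length, the 10 mRNAs spanned from CHAC1 to ATF4 in both treatments, but their order differed. With GST it ran from ATF4 (90.8 ± 4.53 RPKM) to PSAT1 (31.8 ± 1.28), ASNS (29.0 ± 1.34), TRIB3 (15.3 ± 0.362), CEBPB (6.50 ± 1.49), SESN2 (6.16 ± 0.641), DDIT3 (4.73 ± 0.295), PHGDH (4.49 ± 0.157), PPP1R15A (2.47 ± 0.222) and CHAC1 (1.28 ± 0.219; SD, n = 3 each). The libraries of CEBPB overlapped those of SESN2 and DDIT3, and those of DDIT3 overlapped PHGDH. With GST-PTR1 it ran from ATF4 (96.2 ± 5.94 RPKM) to ASNS (24.3 ± 4.02), PSAT1 (20.7 ± 2.91), CEBPB (19.1 ± 4.13), TRIB3 (8.08 ± 0.745), PPP1R15A (4.49 ± 0.131), SESN2 (4.14 ± 0.95), DDIT3 (3.22 ± 0.61), PHGDH (3.11 ± 0.208) and CHAC1 (0.955 ± 0.0223). ASNS, PSAT1 and CEBPB overlapped each other here, as did PPP1R15A with SESN2, SESN2 with DDIT3 and DDIT3 with PHGDH. CEBPB, which lay below TRIB3 in every GST library, at 0.501, 0.32 and 0.453 of its RPKM, lay above it in every GST-PTR1 library, at 2.67, 2.22 and 2.16 (exact permutation test, two-sided, p = 0.1). Both genes already separated the treatments in RPKM, in opposite directions, so this p could take no other value and adds nothing.

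The GST and GST-PTR1 libraries did not overlap for 8 of the 10 genes in RPKM on library totals, against 43.1% of all genes tested, and for 6 on TMM-scaled totals, against 40.4%. To set the genes against the level of ATF4 mRNA itself, the RPKM of each was divided by that of ATF4 in the same library, which removes the scaling between libraries. The ratio was lower in all 3 GST-PTR1 libraries than in all 3 GST libraries for DDIT3, TRIB3, CHAC1, SESN2, ASNS, PSAT1 and PHGDH, where 39.9% of all genes tested had such a ratio. The divisor, ATF4, itself had a log2 fold change of 0.28 (adjusted p = 0.0926 in edgeR). A lower ratio therefore need not mean a lower level of the gene, as with ASNS (-0.045 on the log2 scale, with overlapping libraries). TRIB3 was at 0.169, 0.173 and 0.164 of ATF4 with GST and at 0.0928, 0.0845 and 0.0753 with GST-PTR1. PSAT1 was at 0.353, 0.381 and 0.319 with GST and at 0.249, 0.218 and 0.181 with GST-PTR1. For CEBPB and PPP1R15A the ratio was higher in all 3 GST-PTR1 libraries, which 6.04% of all genes tested showed. CEBPB was at 0.071 ± 0.015 of ATF4 with GST and 0.199 ± 0.044 with GST-PTR1 (SD, n = 3 each). Each of these 9 comparisons had a p of 0.1 in the exact permutation test (two-sided), the smallest possible. They share the ATF4 values and are not independent.

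**Figure D3:**
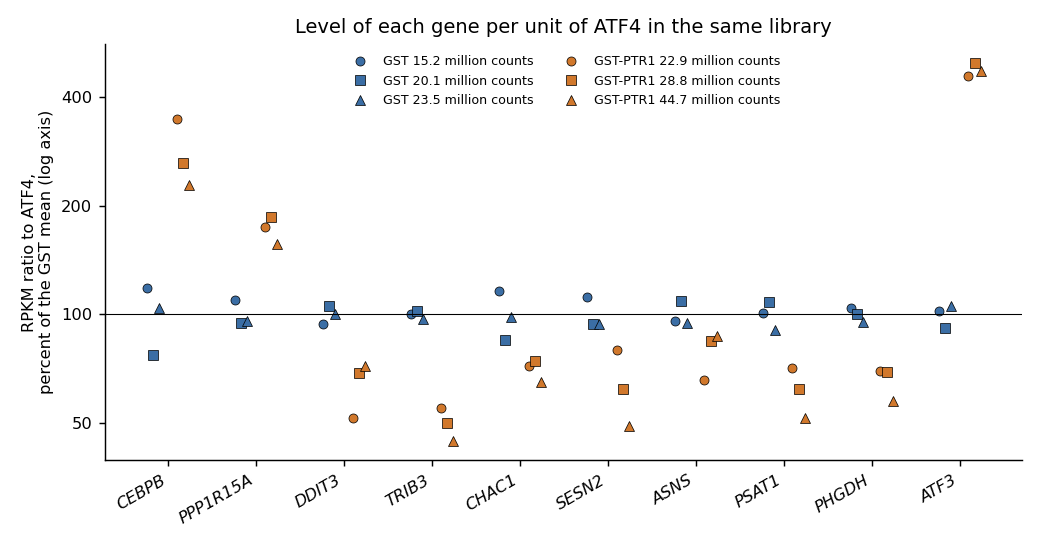
RPKM ratio of each gene to ATF4 in the same library, as a percent of the mean ratio of the GST libraries (log axis; GST in blue, GST-PTR1 in orange, the line at 100 marks the GST mean). TRIB3 falls to between 44.7 and 55.1 percent in the GST-PTR1 libraries, and ATF3, added for comparison, rises to between 456 and 496 percent.

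Upstream of ATF4, 2 of the 4 eIF2 kinases fell, and differences between the kinases were not tested. EIF2AK4 (GCN2, the sensor of amino acid shortage) had 3.49, 3.1 and 2.65 RPKM with GST and 1.89, 1.77 and 1.54 RPKM with GST-PTR1 (-0.64 on the log2 scale, edgeR adjusted p = 0.0047). EIF2AK3 (PERK, the ER stress sensor) fell from 6.58 ± 0.559 to 4.47 ± 0.272 RPKM (-0.36 on the log2 scale, edgeR adjusted p = 0.0368). Neither EIF2AK1 (HRI, the sensor of heme and mitochondrial stress) nor EIF2AK2 (PKR, the sensor of double-stranded RNA) passed the test, with log2 fold changes of -0.03 (95% interval -0.24 to 0.19) and 0.15 (-0.07 to 0.37). Of 18 genes for eIF2, its kinases and their control, 3 were higher (PPP1R15B and the eIF2 subunits EIF2S1 and EIF2S2) and 3 lower (EIF2AK4, EIF2AK3 and DNAJC3, an inhibitor of PERK and PKR), which is 16.7% each, against 9.15% and 11.4% of all genes tested. Their log2 fold changes had a median of 0.10. EIF2S2 had a log2 fold change of 0.40 (adjusted p = 0.0285 in edgeR). Whichever 1 of the 6 libraries was left out, EIF2AK4 alone kept its call among the lower genes. EIF2AK3 then had log2 fold changes of -0.42 to -0.33 (edgeR adjusted p from 0.0517 to 0.129). Of the higher genes, 1 kept its call without the GST library of 15.2M or 23.5M or the GST-PTR1 library of 28.8M or 44.7M.

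The C/EBP, ATF, CREB and AP-1 proteins with which ATF4 can pair or compete included genes with changes well above that of ATF4. Of 20 genes 18 were tested, with a median log2 fold change of 0.31. Of these, 8 were higher (44.4%) and 1 lower (5.56%), against 9.15% and 11.4% of all genes tested. At least 2-fold, 5 rose and 1 fell, where 3.68% and 3.85% of all genes tested did. CEBPD, the C/EBPδ gene of acute inflammation, had 8 to 12 counts per library with GST, and rose from 0.272, 0.183 and 0.235 to 5.98, 6.29 and 7.0 RPKM (5.01 on the log2 scale, SE 0.22, edgeR adjusted p = 7.24e-08). BATF, an AP-1 factor of lymphocytes, rose from 6.02 ± 0.875 to 152 ± 19.4 RPKM (4.85 on the log2 scale). JUN rose by 1.11 on the log2 scale (edgeR adjusted p = 8.14e-05), FOS by 1.63 and BATF3 by 1.78, the last from 5 to 6 counts per library with GST. CREB1 (0.80) and NFE2L2 (0.65 on the log2 scale), which encodes the redox factor NRF2, rose as well, and 16.6% of the exon bases of NFE2L2 are shared with another gene on its strand. CREB3L2, an ER-bound factor of secretory cells, fell from 5.76 ± 1.63 to 2.40 ± 0.501 RPKM (-1.07 on the log2 scale, edgeR adjusted p = 0.00206). CEBPG, a further partner of ATF4, rose from 5.65 ± 0.172 to 6.49 ± 0.406 RPKM (0.40 on the log2 scale, edgeR adjusted p = 0.0263). Among the fits that left out 1 library, only that without the GST-PTR1 library of 28.8M called CEBPG (adjusted p = 0.0472 in edgeR).

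The makeup of the C/EBP transcripts is given as shares. Of the summed RPKM of CEBPB, CEBPD and CEBPG, CEBPD took 1.85 ± 0.133% with GST and 20.3 ± 3.63% with GST-PTR1, CEBPG took 46.1 ± 5.38% and 20.4 ± 1.52%, and CEBPB 52.0 ± 5.28% and 59.3 ± 5.14% (SD, n = 3 each). The libraries of the treatments overlapped for the share of CEBPB but not for the other two. CEBPA and CEBPE had at most 1 count in any library.

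**Figure D4:**
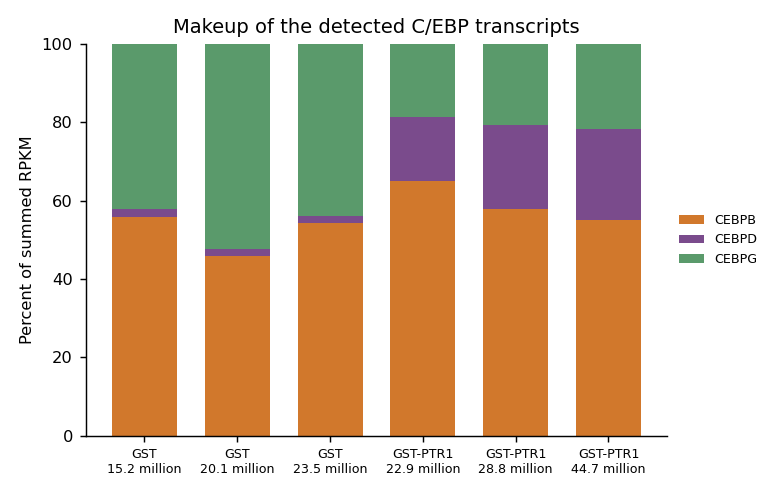
Share of CEBPB, CEBPD and CEBPG in their summed RPKM in each library, as stacked bars from 0 to 100 percent. CEBPD takes between 16.3 and 23.2 percent in the GST-PTR1 libraries and between 1.75 and 2.0 percent in the GST libraries, and CEBPG is lower in every GST-PTR1 library.

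Among 22 other targets of ATF4 or CHOP, 19 were tested, with a median log2 fold change of 0.011. Of these, 6 were higher (31.6%) and 4 lower (21.1%), against 9.15% and 11.4% of all genes tested. ATF3, a repressor and activator of the same family that also responds to inflammatory signals, rose from 3.37, 2.92 and 3.71 RPKM to 16.1, 16.4 and 17.6 RPKM (2.52 on the log2 scale, SE 0.13, edgeR adjusted p = 2.54e-07). JDP2, which shares its binding sites, rose from 2.39 ± 0.227 to 4.71 ± 0.367 RPKM (1.17 on the log2 scale, edgeR adjusted p = 4.46e-05). SQSTM1, the autophagy receptor p62, rose from 62.8 ± 2.18 to 99.3 ± 7.61 RPKM (0.86 on the log2 scale). The other genes that rose were ATF5 (0.68), BCL2L11, which encodes the death-promoting BIM (0.68), and CEBPG (0.40 on the log2 scale). CEBPG is counted among the partners as well, and its call was lost in most fits that left out 1 library. Those that fell were KLHL24 (-0.81), BBC3, which encodes the death-promoting PUMA (-0.74), MAP1LC3B (-0.38) and the ER gene HERPUD1 (-0.36 on the log2 scale). GDF15, FGF21 and VLDLR were too low to be tested. Leaving out 1 library at a time gave 1 to 3 lower genes, with 1 without the GST library of 23.5M or the GST-PTR1 library of 28.8M and 2 without that of 15.2M, 22.9M or 44.7M.

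Of 13 genes for amino acid and one-carbon synthesis, 1 was higher and 3 lower (30.8% called, against 20.6% of all genes tested), with a median log2 fold change of 0.035. MTHFD2, the mitochondrial folate enzyme, rose from 42.6, 49.7 and 46.8 to 58.1, 63.8 and 71.1 RPKM (0.67 on the log2 scale, edgeR adjusted p = 0.0047), while SHMT1 (-0.42), GPT2 (-0.54) and CBS (-0.54 on the log2 scale) fell. Without the GST-PTR1 library of 28.8M the log2 fold changes of SHMT1, GPT2 and CBS were -0.43, -0.53 and -0.51, none of them called (edgeR adjusted p = 0.0533, 0.0605 and 0.0752). Without that of 44.7M they were -0.40, -0.43 and -0.46, with SHMT1 called (edgeR adjusted p = 0.0376, 0.0541 and 0.0553). Of 11 amino acid transporter genes tested, 0 were higher in the edgeR test, against 9.15% of all genes, and 2 were lower (18.2%, against 11.4%). After adjustment DESeq2 had 0 higher and 2 lower, and limma's voom 0 higher and 1 lower. At an unadjusted p under 0.05 each of the tools had 0 higher and 4 lower, a threshold at which the share of all genes was not computed. SLC1A4, a carrier of neutral amino acids, fell from 33.9 ± 6.25 to 16.6 ± 2.85 RPKM (-0.84 on the log2 scale, edgeR adjusted p = 0.0016). SLC7A11, the cystine carrier, fell from 1.41 ± 0.227 to 0.873 ± 0.056 RPKM (-0.48 on the log2 scale, edgeR adjusted p = 0.0466). SLC43A1, next in order, had -0.34 (adjusted p = 0.0592 in edgeR). Only 1 carrier was lower without the GST library of 15.2M or 20.1M or the GST-PTR1 library of 22.9M or 28.8M.

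The cytosolic tRNA synthetases, which charge tRNA and include many ATF4 targets, were tested with the tRNA exporter XPOT as a list of 21 genes. With adjustment, 0 were higher and 0 lower by edgeR, DESeq2 or limma's voom, where edgeR had 9.15% and 11.4% of all genes tested. At an unadjusted p under 0.05 each tool had 5 higher and 1 lower, a threshold at which the share of all genes was not computed. Log2 fold changes lay between -0.27 and 0.31, with a median of 0.15. The smallest adjusted p belonged to WARS1 (log2 fold change 0.28, adjusted p = 0.0759 in edgeR), AARS1 (-0.27, 0.0974) and HARS1 (0.22, 0.109). Without the GST library of 20.1M 1 gene was higher.

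In the XBP1 and ATF6 arms of the unfolded protein response, which act beside PERK at the ER, 1 of 20 genes was higher (5%) and 5 lower (25%), against 9.15% and 11.4% of all genes tested, with a median log2 fold change of -0.20. ERN1, the IRE1α sensor that splices XBP1, fell from 13.2 ± 2.86 to 6.59 ± 1.17 RPKM (-0.81 on the log2 scale, edgeR adjusted p = 0.00325). XBP1, a factor plasma cells need for secretion, was at 159, 126 and 142 RPKM with GST and 91.8, 84.9 and 91.7 RPKM with GST-PTR1 (-0.47 on the log2 scale, edgeR adjusted p = 0.0149). EDEM1 (-0.59), WFS1 (-0.40) and DNAJC3 (-0.35 on the log2 scale) fell as well. HSPA5, the chaperone BiP, did not pass the test, with a log2 fold change of -0.19 (95% interval -0.45 to 0.06). The gene that rose was SEC61B, a translocon subunit (0.43, adjusted p = 0.0497 in edgeR). With library totals 10 of the 20 genes were lower, where 22.4% of all genes were, and 0 were higher, where 5.48% were. Leaving out 1 library at a time left 2 to 5 lower, with 2 without the GST library of 23.5M or the GST-PTR1 library of 28.8M and 3 without that of 15.2M, 22.9M or 44.7M. SEC61B was called in 1 of these 6 fits, that without the GST-PTR1 library of 22.9M.

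**Figure D5:**
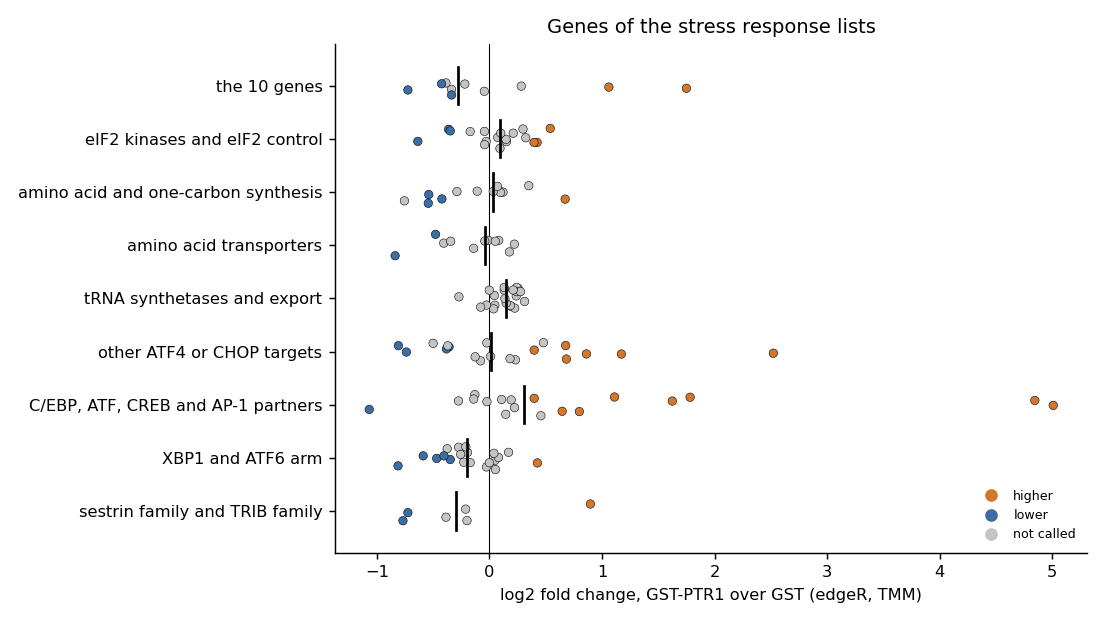
Log2 fold change (edgeR with TMM factors) of each gene tested in the 10-gene set and the 8 lists around it, coloured by call, with a bar at the median of each list. The tRNA synthetases lie between -0.27 and 0.31 with no call, and the largest increases, CEBPD (5.01) and BATF (4.85), are among the partners of ATF4.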

How the data were processed

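RNA-Seq of RPMI8226 cells (3 libraries per treatment) was analysed from the counts per gene that the authors deposited, made without normalization by featureCounts 1.5.0-p1 on Ensembl release 75 of GRCh37, by reverse strand and without reads that map to several places. The table's header gives these settings. The aligner's version is not given in the sources used here. Exon lengths (a column of other values) are as deposited in the table.

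Column names give the treatment and a number that could not be matched to the samples' replicate numbers. Total counts serve here as names. The samples are labelled biological replicates. Within a treatment the smallest chi-square per gene between libraries was 7.66, so none was counted as a repeat. Totals allowed 3 counts to stand for 0.067 to 0.20 CPM, counting error only.

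edgeR 4.0.16 (R 4.3.3) was fitted over the 16926 genes passing filterByExpr, with TMM factors, the quasi-likelihood test and Benjamini-Hochberg adjustment. Intervals of fold changes are 95% intervals from that fit. Alternatives were DESeq2's size factors, library totals, DESeq2 1.42.0, limma 3.58.1 voom, filters of at least 1 count in any or 10 in every library, leaving out each library, and a fold threshold of 2. Fits of 4 libraries that share a column number and of counts summed with pseudogene copies were added after seeing the data. The share of all genes called was computed for edgeR with TMM factors, at any fold and at 2-fold, and for edgeR with library totals. It was not computed for the other alternatives. Tests were checked on simulated counts with as many raised as lowered genes. That check does not cover the difference in TMM factors between the treatments. RPKM, ratios and exact permutation tests used Python 3.11.15 and scipy 1.17.1.

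The 10 genes and the lists, from general knowledge, were chosen with earlier results of these data known. Named genes are the 10, the 4 eIF2 kinases, HSPA5, XBP1, the 3 smallest adjusted p of each list and called changes of at least 2-fold. Other called genes are named where a list had few, chosen after their values were seen.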

Additional observations from a re-analysis of the deposited data

How the results depend on the processing

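TRIB3, PPP1R15A and CEBPB kept their direction and their call in all 12 alternatives set out for them, and ATF4 and CHAC1 kept their direction and were called in none. No paired analysis was possible over all 6 libraries, as column numbers could not be matched to replicate numbers. The GST library of 15.2M and the GST-PTR1 library of 22.9M also share no column number with a library of the other treatment. In the 4 libraries that share a column number, chosen after seeing the data, same-numbered libraries deviated from their group means with correlations of -0.026 and 0.25. These lie within the range of the GST and GST-PTR1 pairs with unlike numbers, -0.466 to 0.363. In the 4 libraries the log2 fold change without and with the replicate block was 0.045 and 0.037 for ASNS (reversed), -0.49 and -0.48 for SESN2 (now called) and -0.35 and -0.35 for PHGDH (not called). Both of these fits gave 1 higher and 1 lower eIF2 gene, 1 lower transporter, 2 lower other targets and 2 lower genes of the XBP1 and ATF6 arm, from fewer libraries. The share of all genes called in these fits was not computed. Summing pseudogene copies with ATF4, ASNS and PSAT1 changed no call.

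Library totals gave -0.54 for DDIT3 and -0.58 for SESN2, both called, and 5 lower genes of the 10. With that scaling 22.4% of all genes tested were lower and 5.48% higher. Of 18 eIF2 genes, 1 was then higher. Lower genes numbered 5 of 13 for synthesis, 4 of 11 for transporters, 1 of 21 for tRNA synthetases and XPOT, and 2 of 18 for partners. In the XBP1 and ATF6 arm, 0 were higher and 10 lower of 20. PHGDH was at -0.33 with DESeq2's size factors and -0.31 with a filter of 1 count in any library, not called in either. That filter gave 1 lower eIF2 gene and 1 higher tRNA synthetase. With at least 10 counts in every library, and with limma's voom, 1 transporter was lower and 0 genes of the XBP1 and ATF6 arm were higher. The share of all genes called with these filters or with limma's voom was not computed. At a change of at least 2-fold, 0 of the 10 were lower, 2 other targets and 5 partners were higher, and there were 0 higher or lower eIF2, synthesis, XBP1 and ATF6 arm, or sestrin and TRIB genes, 0 lower transporters and 0 lower other targets. At that fold 3.68% of all genes tested were higher and 3.85% lower. The cause of these differences was not tested.

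Leaving out 1 library at a time gave log2 fold changes of -0.21 to 0.094 for ASNS, reversed at 0.0031 without the GST library of 20.1M and at 0.094 without the GST-PTR1 library of 22.9M. It gave -0.52 to -0.19 for DDIT3, -0.33 to -0.14 for CHAC1, -0.54 to -0.28 for SESN2, -0.51 to -0.37 for PSAT1 and -0.35 to -0.31 for PHGDH. Lower genes numbered 1 to 3 of the 10, 1 in each case for eIF2, 0 to 3 for synthesis, 1 to 2 for transporters, 1 to 3 for other targets and 2 to 5 for the XBP1 and ATF6 arm. Higher genes numbered 1 to 3 for eIF2, and 0 to 1 for the tRNA synthetases, the XBP1 and ATF6 arm, and the sestrin and TRIB genes. The share of all genes called in these fits was not computed. A general loss of calls with fewer libraries and one particular to these genes therefore cannot be told apart. Low counts of CHAC1 and DDIT3 limit what these libraries can show for them.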
